A study of Mus musculus with 12 samples.

Results

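The genes described here encode 10 proteins that build or finish the sarcomere, chosen by gene symbol out of 55385 genes in the deposited C2C12 count table. They are the leiomodins Lmod2 and Lmod3, the tropomodulins Tmod1 and Tmod4, the nebulin-related scaffold Nrap, the muscle kelch proteins Klhl40 and Klhl41, the myosin chaperone Unc45b, the methyltransferase Smyd1 and the HSP90 chaperone Hsp90aa1. All 10 symbols were found once, all 10 had the same symbol in the reference name table, and all 10 passed the filter on low counts. Lmod2 and Unc45b, with 10 or fewer counts in every myoblast library, passed that filter only through their myotube libraries. C2C12 is a mouse myoblast line, and the libraries were made from total RNA of 3 samples of undifferentiated myoblasts and 3 samples differentiated into myotubes for 7 days. No label gives a genotype, a transgene or a differentiation medium. The labels name 1 cell line and do not say whether samples of a group were separate cultures. The p-values therefore set group differences against the variation among these samples only, and that variation may be technical. The series also holds small RNA libraries of embryonic stem cells, which were not used here.

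A sarcomere is the contractile unit of striated muscle, with actin thin filaments anchored at the Z-disc and myosin thick filaments between them. Tropomodulins cap the slow-growing pointed end of thin filaments, and leiomodins, their relatives, nucleate actin and let that end grow. Myosin heads reach their folded state with help from HSP90 and its muscle partner UNC45B, and SMYD1 binds the same chaperone system. N-RAP is a scaffold of early myofibrils, and the kelch proteins KLHL40 and KLHL41 are substrate adaptors or stabilisers of thin filament proteins. Loss of LMOD3, KLHL40 or KLHL41 causes nemaline myopathy in people.

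In the RefSeq annotation of GRCm38.p6, the assembly that mm10 names, the genes Lmod2 at chr6:24597771-24605414 and Lmod3 at chr6:97238530-97253217 lie on the same chromosome as Smyd1 at chr6:71213940-71262281. The tropomodulin genes are Tmod1 at chr4:46038940-46116032 and Tmod4 at chr3:95122799-95129209. The scaffold and kelch genes are Nrap at chr19:56320037-56390062, Klhl40 at chr9:121777499-121791200 and Klhl41 at chr2:69670120-69684239. The chaperones are Unc45b at chr11:82911253-82943406 and Hsp90aa1 at chr12:110691036-110696395. Counts are per gene, with no split by transcript.

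Total counts ranged from 18335785 to 54083215 per C2C12 library, and 15932 genes were tested. Levels are given as CPM, counts scaled by library size and TMM factors, and levels of different genes are compared only as CPM per kilobase of the deposited gene length. A gene is called where edgeR's quasi-likelihood test, adjusted by the Benjamini-Hochberg method over all tested genes, gave an adjusted p under 0.05. The 5 markers of differentiated skeletal muscle (Myog, Ckm, Acta1, Mymk and Atp2a1) summed to between 8.97 and 51.9 CPM in myoblast libraries and to between 1477 and 4037 CPM in myotube libraries. Of 5 myoblast markers, Myf5 fell, Des rose, and Pax7, Myod1 and Cdh15 were not called. Their sum ran from 586 to 995 CPM in myoblast libraries and from 986 to 3015 CPM in myotube libraries. Among the 7 cardiac markers, Myl7 was at 0 counts in every library and Nppa had 1 count in all, while Tnnt2 and Myh6 rose, to 766 ± 368 and 8.38 ± 1.38 CPM in myotubes (SD, n = 3). Of the other cardiac markers, Nppb fell by 2.74 on the log2 scale (edgeR adjusted p = 0.0125), and Tnni3 and Nkx2-5 were not called. Of 5 fibroblast markers, Thy1 was at 0 in every library. The whole list summed to between 34.2 and 44.6 CPM in myoblasts and rose to between 591 and 2451 CPM in myotubes, highest in myotube replicate 1. All 4 tested fibroblast markers rose, and the part of these cells or genes in the results below was not tested.

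Of the 10 genes, 8 rose in myotubes, Hsp90aa1 fell, and Tmod4 was not called. Across all tested genes 40.1% were called, 20.5% as higher and 19.6% as lower. The 8 rises ran from 16.1-fold for Nrap to 499.955-fold for Lmod2. The 95% interval for Lmod2, from 158.6-fold to 1575.6-fold, overlapped those of Lmod3, Klhl40, Klhl41 and Unc45b. The interval for Nrap overlapped those of Tmod1 and Smyd1, so neither end of the range is settled. The median log2 fold change was 6.23 over the 10 genes and 0.06 over all tested genes. Myoblast and myotube libraries did not overlap for 9 of the 10 genes, against 55.9% of tested genes. In bulk RNA, more cells of a type and more RNA per cell cannot be told apart.

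**Figure D1:**
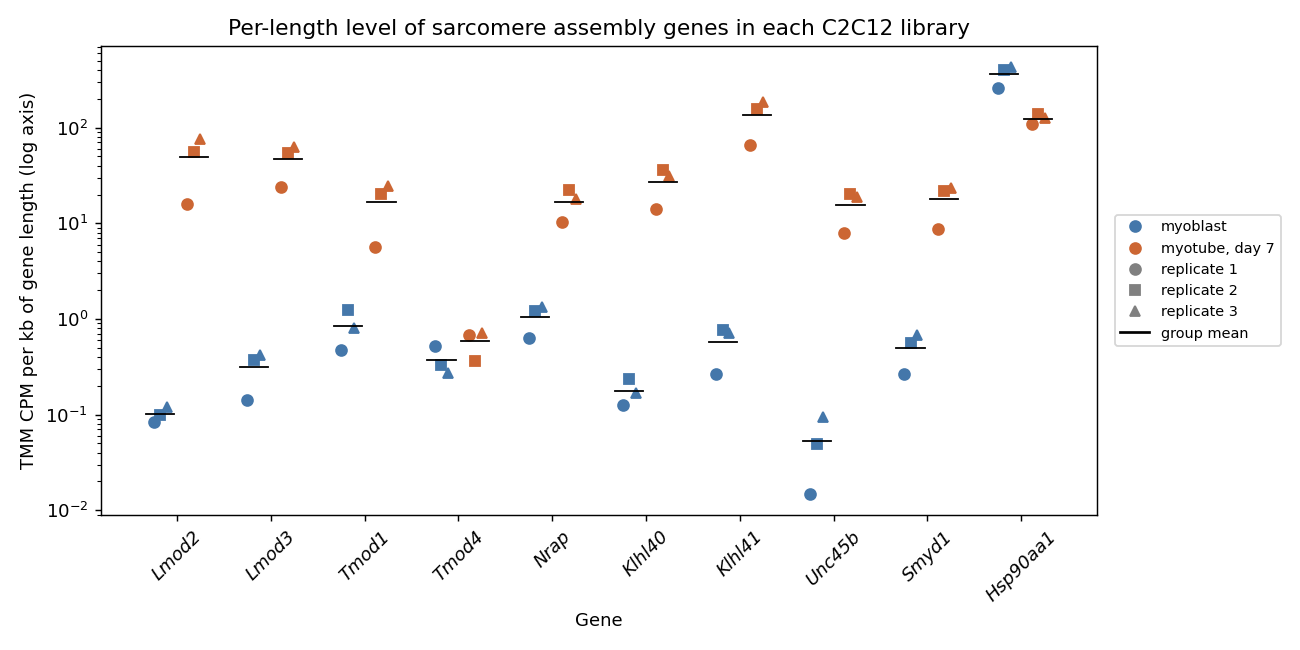
Level of each of the 10 genes in the 6 C2C12 libraries, as TMM-scaled CPM per kilobase of gene length on a log axis, with the group as the colour, the replicate as the symbol's shape and group means as black lines. In 8 genes the myotube libraries lie far above the myoblast libraries, Tmod4 overlaps between groups, and Hsp90aa1 is lower in all 3 myotube libraries.

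Lmod2 and Lmod3 had 34 or fewer counts in every myoblast library and rose in myotubes. Lmod2, the leiomodin of striated muscle that elongates thin filaments, stood at 0.167, 0.195 and 0.234 CPM in the myoblast libraries (10, 8 and 5 counts) and at 31.7, 110.3 and 150.5 CPM in the myotube libraries. Every myotube library lay at least 135-fold above the highest myoblast library. The log2 fold change was 8.97 ± 0.72 (SE, adjusted p = 0.000166), rank 67 among the rises of all tested genes. A gene this low in myoblasts is tested only if it is higher in myotubes, so the rank depends on the filter. Lmod3, which nucleates actin in skeletal muscle, stood at 0.318, 0.828 and 0.938 CPM in myoblasts and at 53.1, 121.5 and 137.8 CPM in myotubes. Its log2 fold change was 7.31 ± 0.57 (SE, adjusted p = 0.000154). Lmod1, the smooth muscle leiomodin, was not called (4.43 ± 3.55 CPM in myoblasts, 3.14 ± 0.798 in myotubes, SD, n = 3).

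As a share of the 3 leiomodins per gene length, Lmod1 held 69.0% ± 9.25 in myoblasts and 1.18% ± 1.09 in myotubes (SD, n = 3). Lmod2 went from 8.53% ± 4.72 to 48.0% ± 8.04 and Lmod3 from 22.4% ± 6.22 to 50.8% ± 7.01 (SD, n = 3). In myotube replicate 1, Lmod3 held the larger share (58.5% against 39.1% for Lmod2), and in replicate 3 Lmod2 did (54.7% against 44.7%). The summed per-length level of the leiomodins was 0.617, 1.32 and 2.67 CPM per kilobase in myoblasts and 41.0, 111.2 and 139.2 in myotubes. The shares did not overlap between groups for Lmod2 or Lmod3, with an exact two-sided permutation p of 0.1 each (adjusted p = 0.15 over 6 shares), the smallest p that 3 against 3 samples allow.

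Tmod1 rose and Tmod4 was not called, and their per-length log2 ratio was 1.11 ± 1.10 in myoblasts and 4.66 ± 1.43 in myotubes (SD, n = 3; exact permutation p = 0.1). Tmod1, the pointed-end cap of striated muscle and erythrocytes, stood at 1.87, 4.85 and 3.19 CPM in myoblasts and at 22.3, 80.7 and 95.9 CPM in myotubes. Its lowest myotube library was 4.60 times its highest myoblast library, and its log2 fold change was 4.33 ± 0.61 (SE, adjusted p = 0.00135). Tmod4, the tropomodulin of skeletal muscle, had 54, 23 and 10 counts in myoblasts and 30, 19 and 21 counts in myotubes, or 0.902, 0.560 and 0.469 CPM against 1.16, 0.619 and 1.22 CPM. The groups overlapped, and the log2 fold change was 0.59 with a 95% interval from -0.49 to 1.68 (edgeR, adjusted p = 0.340). That interval allows a change between 0.711-fold and 3.20-fold, and it lies below the intervals of the 8 genes that rose, of which the lowest begins at 2.93 for Tmod1.

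Tmod3, the tropomodulin found in most tissues, was not called at 107 ± 22.8 CPM in myoblasts and 89.6 ± 5.43 CPM in myotubes (SD, n = 3). Tmod2, the neuronal form, was not called either (3.14 ± 0.191 and 2.38 ± 0.338 CPM). Among the 4 tropomodulins per gene length, Tmod3 held 86.5% ± 2.59 in myoblasts and 35.6% ± 16.0 in myotubes, while Tmod1 went from 7.40% ± 2.73 to 60.9% ± 18.1 (SD, n = 3; exact permutation p = 0.1, adjusted p = 0.15). Myotube replicate 1 was the exception to this order, with 54.0% Tmod3 and 40.0% Tmod1. Tmod4 held 3.64% ± 2.08 and 2.71% ± 1.85 (SD, n = 3; exact permutation p = 0.5). The RefSeq span of Tmod4 overlaps that of Vps72 (GRCm38.p6), and its few counts are uncertain because the counting's strand setting is not given in the sources used here.

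**Figure D2:**
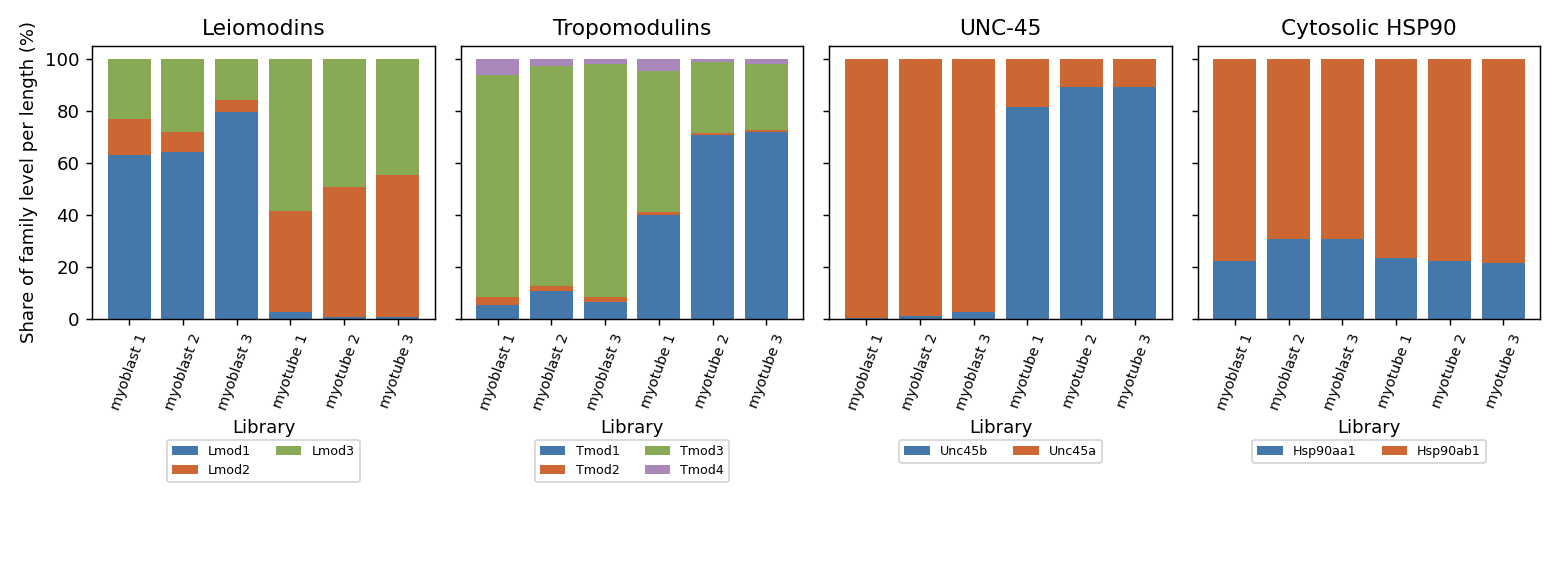
Share of each gene in the summed per-length level of its family, in percent, in each C2C12 library, with 1 stacked bar per library. Lmod1, Tmod3 and Unc45a hold most of their families in the 3 myoblast libraries. Lmod2 and Lmod3 together, and Unc45b, hold most of theirs in all 3 myotube libraries. Tmod1 leads its family in myotube replicates 2 and 3, and Tmod3 still leads in myotube replicate 1. The HSP90 shares overlap between groups.

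Nrap, the nebulin-related protein of myofibril precursors, had the smallest of the 8 rises. It stood at 3.51, 6.60 and 7.36 CPM in myoblasts and at 56.7, 122.3 and 99.5 CPM in myotubes, which is 4.01 ± 0.39 on the log2 scale (SE, edgeR adjusted p = 0.000297). Its relative Neb (nebulin), which runs along the thin filament, rose by 8.28 ± 0.60 on the log2 scale. The other nebulin-repeat genes did not rise: Nebl was not called (-0.55 ± 0.50) and Lasp1, a focal adhesion protein, fell by 2.03 on the log2 scale (SE 0.18, edgeR adjusted p = 0.000204).

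Both kelch genes rose, and Klhl41 had the highest mean per-length level of the 10 genes in myotubes, though its range overlapped that of Hsp90aa1. Klhl41 stood at 0.668, 1.95 and 1.78 CPM in myoblasts and at 165.8, 397 and 474 CPM in myotubes, which is 7.92 ± 0.62 on the log2 scale (SE, edgeR adjusted p = 0.000160). Klhl40, whose protein binds and stabilises LMOD3 and nebulin, stood at 0.318, 0.584 and 0.422 CPM in myoblasts and at 35.2, 89.4 and 78.1 CPM in myotubes, a change of 7.26 ± 0.47 (SE, adjusted p = 7.56e-05). All myotube libraries lay above all myoblast libraries for both, by at least 85.1-fold for Klhl41 and 60.2-fold for Klhl40. Per length, Klhl41 exceeded Klhl40 in every library, by 1.61 ± 0.51 log2 units in myoblasts and 2.31 ± 0.24 in myotubes (SD, n = 3). For the difference of this ratio between the groups, the exact permutation p was 0.1 (adjusted p = 0.117 over 7 pairs). The log2 ratio of Klhl40 to its partner Lmod3 was -0.73 ± 0.58 in myoblasts and -0.79 ± 0.19 in myotubes (SD, n = 3; exact permutation p = 0.9, adjusted p = 0.9 over 7 pairs chosen after the counts were seen).

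Promoter windows of 300 bases, from 250 before to 50 after a transcription start, were at hand for 8 of the 10 genes from RefSeq (GRCm38.p6). Lmod3 and Hsp90aa1 had no entry. Of 5 motifs searched on both strands, the E-box CAGCTG, a binding sequence of the myogenic helix-loop-helix factors, was in 4 of the 8 windows (Lmod2, Nrap, Klhl40 and Klhl41) and in 16.3% of all 32851 windows. The other 3 genes that rose and have a window, Tmod1, Unc45b and Smyd1, lacked it. The 4 windows are shown because they hold CAGCTG, and 2 without it are set beside them, that of Unc45b, which rose, and that of Tmod4, which was not called. The starts in the table lie inside the gene's span for Tmod1, Tmod4, Nrap and Klhl40, so these windows are not those of the outermost start. The printed windows lie at chr6:24597521-24597820 (plus strand), chr19:56389989-56390288 (minus strand), chr9:121777357-121777656 (plus strand), chr2:69669870-69670169 (plus strand), chr11:82911003-82911302 (plus strand) and chr3:95124264-95124563 (plus strand), in the order given. Capitals mark every match to these 5 motifs. Other matches to the looser E-box CANNTG, counted below, are left in lower case.
Lmod2: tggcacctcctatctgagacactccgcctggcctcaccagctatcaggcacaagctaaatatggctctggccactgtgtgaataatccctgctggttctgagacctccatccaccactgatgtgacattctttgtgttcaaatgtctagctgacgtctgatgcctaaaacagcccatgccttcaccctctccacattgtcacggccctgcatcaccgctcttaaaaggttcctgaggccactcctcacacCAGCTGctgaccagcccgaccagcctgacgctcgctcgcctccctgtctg
Nrap: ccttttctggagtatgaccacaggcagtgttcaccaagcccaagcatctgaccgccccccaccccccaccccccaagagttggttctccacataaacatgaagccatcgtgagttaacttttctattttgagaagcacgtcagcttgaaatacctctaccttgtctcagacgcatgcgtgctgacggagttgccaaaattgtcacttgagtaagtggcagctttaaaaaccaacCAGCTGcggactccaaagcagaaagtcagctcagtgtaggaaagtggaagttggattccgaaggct
Klhl40: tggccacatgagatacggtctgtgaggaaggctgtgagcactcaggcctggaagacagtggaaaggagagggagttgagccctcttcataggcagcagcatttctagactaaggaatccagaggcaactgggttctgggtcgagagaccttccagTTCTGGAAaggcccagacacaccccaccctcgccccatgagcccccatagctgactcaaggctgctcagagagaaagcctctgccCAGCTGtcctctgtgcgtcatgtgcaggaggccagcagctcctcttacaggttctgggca
Klhl41: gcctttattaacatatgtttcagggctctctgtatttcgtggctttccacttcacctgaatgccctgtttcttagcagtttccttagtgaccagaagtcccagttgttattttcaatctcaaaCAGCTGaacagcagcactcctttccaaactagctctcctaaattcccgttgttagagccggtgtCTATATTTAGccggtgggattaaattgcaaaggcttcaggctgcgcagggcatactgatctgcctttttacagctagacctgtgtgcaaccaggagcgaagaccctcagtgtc
Unc45b: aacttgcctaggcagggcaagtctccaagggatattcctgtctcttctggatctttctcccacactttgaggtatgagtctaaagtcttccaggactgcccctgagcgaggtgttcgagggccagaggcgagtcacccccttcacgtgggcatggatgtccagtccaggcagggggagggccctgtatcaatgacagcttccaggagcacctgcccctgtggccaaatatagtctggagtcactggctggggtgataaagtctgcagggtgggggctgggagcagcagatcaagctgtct
Tmod4: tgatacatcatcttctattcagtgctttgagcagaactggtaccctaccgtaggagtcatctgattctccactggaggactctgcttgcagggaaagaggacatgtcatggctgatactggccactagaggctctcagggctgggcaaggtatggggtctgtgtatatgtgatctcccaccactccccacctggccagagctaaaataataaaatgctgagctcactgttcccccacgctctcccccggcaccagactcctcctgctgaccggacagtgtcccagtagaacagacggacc
The E-box began at base 1 of the transcript for Lmod2 and at bases -16, -10 and -127 from the start for Nrap, Klhl40 and Klhl41. Klhl41 also held a MEF2 box, found in 3.19% of all windows, and Klhl40 a paired heat shock unit TTCNNGAA, found in 8.52%. Tmod1 held the M-CAT sequence GGAATG (14.7% of all windows), read there on the other strand. None of the 8 windows held a CArG box (1.63% of all windows), and the windows of Tmod4, Unc45b and Smyd1 held none of the 5 motifs. The looser E-box CANNTG, which includes CAGCTG, was in 6 of the 8 windows, those of Unc45b and Tmod4 among them, and in 72.3% of all. A match is only a run of letters in this window.

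Unc45b and Smyd1 rose, while Unc45a and Hsp90aa1 fell. Unc45b, the muscle myosin chaperone, had 4, 9 and 9 counts in myoblasts (0.0668, 0.219 and 0.422 CPM) and stood at 35.6, 90.6 and 83.9 CPM in myotubes. The 4 counts carry a 95% Poisson interval from 1.09 to 10.2 counts, which covers counting error only. The log2 fold change was 8.45 ± 0.65 (SE, adjusted p = 0.000150), and 7.84 without myoblast replicate 1, the library with those 4 counts. Smyd1, a muscle methyltransferase of the same chaperone system, stood at 1.22, 2.53 and 3.09 CPM in myoblasts and at 40.0, 100.004 and 107.2 CPM in myotubes, a change of 5.21 ± 0.51 (SE, adjusted p = 0.000321). Smyd1 exceeded Unc45b per length by 3.51 ± 0.66 log2 units in myoblasts and by 0.20 ± 0.11 in myotubes (SD, n = 3). For the difference of this ratio between the groups, the exact permutation p was 0.1 (adjusted p = 0.117 over the 7 pairs).

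Unc45a, the UNC-45 form of most cells, moved the other way, from 37.7 ± 4.98 to 19.9 ± 2.88 CPM (SD, n = 3; edgeR adjusted p = 0.00658). As a share of the UNC-45 pair per length, Unc45b was 0.380%, 1.03% and 2.52% in the myoblast libraries and 81.4%, 89.3% and 89.3% in the myotube libraries (exact permutation p = 0.1). The summed level of the pair was 4.12 ± 0.526 CPM per kilobase in myoblasts and 17.7 ± 7.00 in myotubes (SD, n = 3). Among the SMYD relatives, Smyd2, Smyd4 and Smyd5 fell by 0.99, 0.84 and 1.84 on the log2 scale (edgeR, adjusted p = 0.00174, 0.0196 and 0.00198), and Smyd3 was not called (0.40 ± 0.22).

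Hsp90aa1, the stress-inducible cytosolic HSP90 and the partner of UNC45B in myosin folding, stood at 1014, 1581 and 1683 CPM in myoblasts and at 427, 549.8 and 494 CPM in myotubes. The lowest myoblast library was 1.84 times the highest myotube library. The log2 fold change was -1.54 ± 0.26 (SE, adjusted p = 0.00274), 2.91-fold lower. Hsp90ab1, the constitutive form, fell from 2783 ± 115 to 1307 ± 205 CPM (SD, n = 3; log2 fold change -1.09 ± 0.23, edgeR adjusted p = 0.00779). The share of Hsp90aa1 in the pair per length was 27.8% ± 4.81 in myoblasts and 22.3% ± 0.982 in myotubes, with myoblast replicate 1 at 22.3% inside the myotube range (SD, n = 3; exact permutation p = 0.3, adjusted p = 0.36). Hsp90b1 of the endoplasmic reticulum was not called (-0.19 ± 0.32), and the mitochondrial form Trap1 fell by 0.46 on the log2 scale (SE 0.15, edgeR adjusted p = 0.0401).

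**Figure D3:**
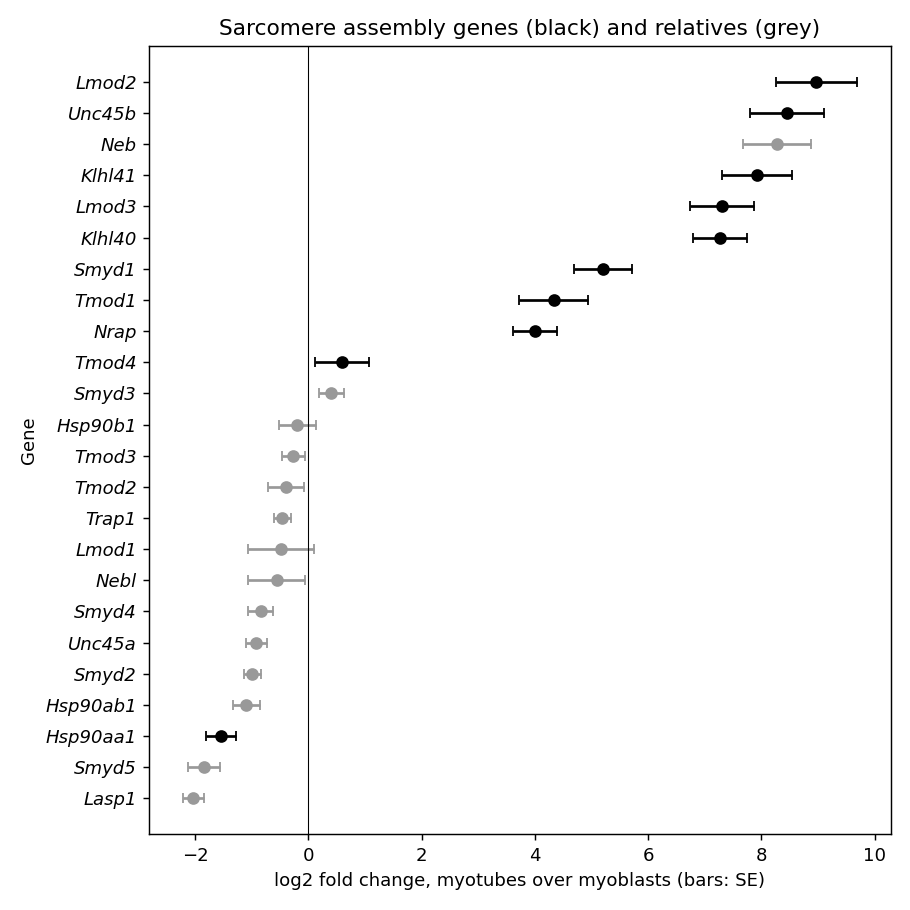
Log2 fold change of the 10 genes (black) and of their 14 paralogs (grey), myotubes over myoblasts, with the standard error as bars. Of the paralogs, Neb (8.28) and Smyd3 (0.40) lie above 0 and the others below it, and Lasp1 (-2.03) and Smyd5 (-1.84) lie below Hsp90aa1 (-1.54).

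In myoblasts Hsp90aa1 led at 363 ± 91.7 CPM per kilobase, 343 times the next gene, Nrap (1.06 ± 0.370), and Unc45b was last at 0.0525 ± 0.0397 (SD, n = 3). Hsp90aa1 made up between 98.8% and 99.0% of the summed per-length level of the 10 genes in each myoblast library and 41.5%, 26.5% and 22.1% in the myotube libraries. From Nrap down, the order in myoblasts was Tmod1, Klhl41, Smyd1, Tmod4, Lmod3, Klhl40, Lmod2 and Unc45b, and the ranges of neighbours overlapped except between Hsp90aa1 and Nrap and between Klhl40 and Lmod2. In myotubes Klhl41 (136.8 ± 63.5) and Hsp90aa1 (124.7 ± 15.7) led with overlapping ranges, followed by Lmod2 (49.3 ± 30.6), Lmod3 (47.0 ± 20.3) and Klhl40 (27.0 ± 11.4). Smyd1, Nrap, Tmod1 and Unc45b lay together between 15.6 and 18.1 CPM per kilobase with overlapping ranges, and Tmod4 was last at 0.582 ± 0.192, 26.8 times below Unc45b. Klhl41 in myotubes exceeded 98.6% of tested genes per length, and Lmod2 moved from percentile 6.39 of tested genes to percentile 95.3. Lmod2 was among the tested genes only through its myotube libraries, so its 2 percentiles are not separate results.

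All 8 genes that rose were lowest in myotube replicate 1, against 44.2% of the genes called higher, by 0.96 to 2.02 log2 units below the mean of replicates 2 and 3, with a median of -1.33 over the 8 and of -0.00 over all tested genes. The summed markers of differentiated muscle in that library were 0.418 times the mean of the others. Its fibroblast markers were higher, with Lum at 379 CPM against 32.7 and 31.8 and Dcn at 1677 CPM against 321 and 339. Tmod4 was not lowest there. In myoblasts, 9 of the 10 genes were lowest in replicate 1, against 40.8% of tested genes, with Tmod4 as the exception. For Lmod2 (10, 8 and 5 counts), Klhl40 (19, 24 and 9) and Unc45b (4, 9 and 9) that order rests on few counts. Without myotube replicate 1 the same numbers of the 10 genes were called, 8 higher and 1 lower, and Lmod2 stood at 9.37, Tmod1 at 4.73 and Hsp90aa1 at -1.47 on the log2 scale.

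Genes whose centred log2 CPM profile over the 6 libraries lay nearest to 9 of the genes were looked up among 10992 candidates. The likeness, a root-mean-square difference in log2 units over 6 libraries, is a description, and it is small for any gene with a like change between the groups. Nearest to Lmod2 were Mef2c (0.24) and Myl4 (0.28), and nearest to Lmod3 were Myom3 (0.12) and Cap2 (0.19). Klhl40 lay nearest to Tnnc1 (0.16) and Myom1 (0.22), Klhl41 to Alpk3 (0.16) and Myl1 (0.20), and Unc45b to Tnnt3 (0.12) and Hspb7 (0.21). Nrap lay nearest to Spry1 (0.18) and Ly6c2 (0.19), and Smyd1 to Klhl31 (0.21) and Tspan13 (0.22). Hsp90aa1 lay nearest to Slc25a24 (0.067) and Nucks1 (0.069), and Tmod4 to Rnf113a2 (0.10) and Ppp1r3f (0.11).

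Chaperone partners of HSP90 were mostly lower in myotubes. Of 22 tested co-chaperones and HSP70 partners, 14 fell, Cdc37l1 rose (0.84 ± 0.15) and 7 were not called. Their median log2 fold change was -0.68 against 0.06 over all tested genes, of which 19.6% were called lower and 20.5% higher. Hspa8, the constitutive HSP70, changed by -0.99 ± 0.25, Hspa4 by -0.80 ± 0.27 and Naca, whose muscle form binds SMYD1, by -0.74 ± 0.20 (SE). St13 and Dnaja2 were not called (-0.17 ± 0.19 and -0.02 ± 0.18). The count of 14 was 8 without myoblast replicate 2, myoblast replicate 3 or myotube replicate 3. Of 9 heat shock factors and other heat-induced chaperones, 5 fell and 4 were not called (median -0.70), and 3 fell without myoblast replicate 3. The mitochondrial chaperone genes Hspd1 and Hspe1 changed by -2.35 ± 0.24 and -1.89 ± 0.15 and the HSP70 exchange factor gene Hsph1 by -1.21 ± 0.32 (SE). Hspa4l and Dnajb4 were not called (-0.43 ± 0.25 and -0.01 ± 0.24).

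All 18 genes of the thick filament and M-band list rose (median 7.92), among them the embryonic myosin heavy chain Myh3 (8.29 ± 0.75), the fast light chain Mylpf (8.19 ± 0.76) and the M-band gene Myom2 (6.46 ± 0.53). Of 22 genes of the thin filament and its assembly, 11 rose, 7 fell and 4 were not called (median 0.68). Among all tested genes, 20.5% were called higher and 19.6% lower. Tpm2, a tropomyosin, changed by 2.28 ± 0.38, the actin-severing gene Gsn by 1.11 ± 0.35 and the muscle cofilin Cfl2 by 0.81 ± 0.23, while Cfl1, Wdr1 and Pfn1, which turn over actin in most cells, changed by -1.49 ± 0.21, -1.52 ± 0.28 and -1.46 ± 0.26 (SE). The values in parentheses are log2 fold changes with their SE. Tpm1 and the capping protein subunit Capza2 were not called (0.55 ± 0.28 and -0.05 ± 0.26).

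Of 20 premyofibril, Z-disc and N-RAP partner genes, 11 rose, 4 fell and 5 were not called, with a median of 2.14, or 1.04 when a mean count of at least 50 was required. The share that fell is close to the 19.6% of all tested genes called lower, and the share that rose is above their 20.5%. The muscle actinin Actn3 rose by 4.10 ± 0.41, Ldb3 by 3.30 ± 0.34 and Tln2 by 0.68 ± 0.15 (SE). The non-muscle actinins Actn1 and Actn4 and the adhesion gene Zyx fell by 1.51, 0.96 and 1.24 on the log2 scale (edgeR, adjusted p = 0.0202, 0.0241 and 0.0208), and 2 genes of the list were called lower without myoblast replicate 3. Non-muscle myosin Myh9 and talin Tln1 were not called (-0.36 ± 0.27 and -0.23 ± 0.25). Of 11 tested muscle kelch and cullin genes, 7 rose and 4 were not called (median 2.24), with Klhl24 at 2.59 ± 0.29, Klhl30 at 2.24 ± 0.43 and Klhl9 at 0.52 ± 0.17 (SE). Klhl34 was at 0 counts in myoblasts and at a low level in myotubes, 2.15 ± 1.02 CPM (SD, n = 3). Taking 3 counts in the whole myoblast group as the floor, Klhl34 was at least 86.7-fold higher. Cul3, the ubiquitin ligase scaffold that kelch proteins dock on, was not called (-0.39 ± 0.25), nor was Rbx1 (-0.38 ± 0.17). These lists, like the 10 genes, were put together with earlier results of these data known.

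**Figure D4:**
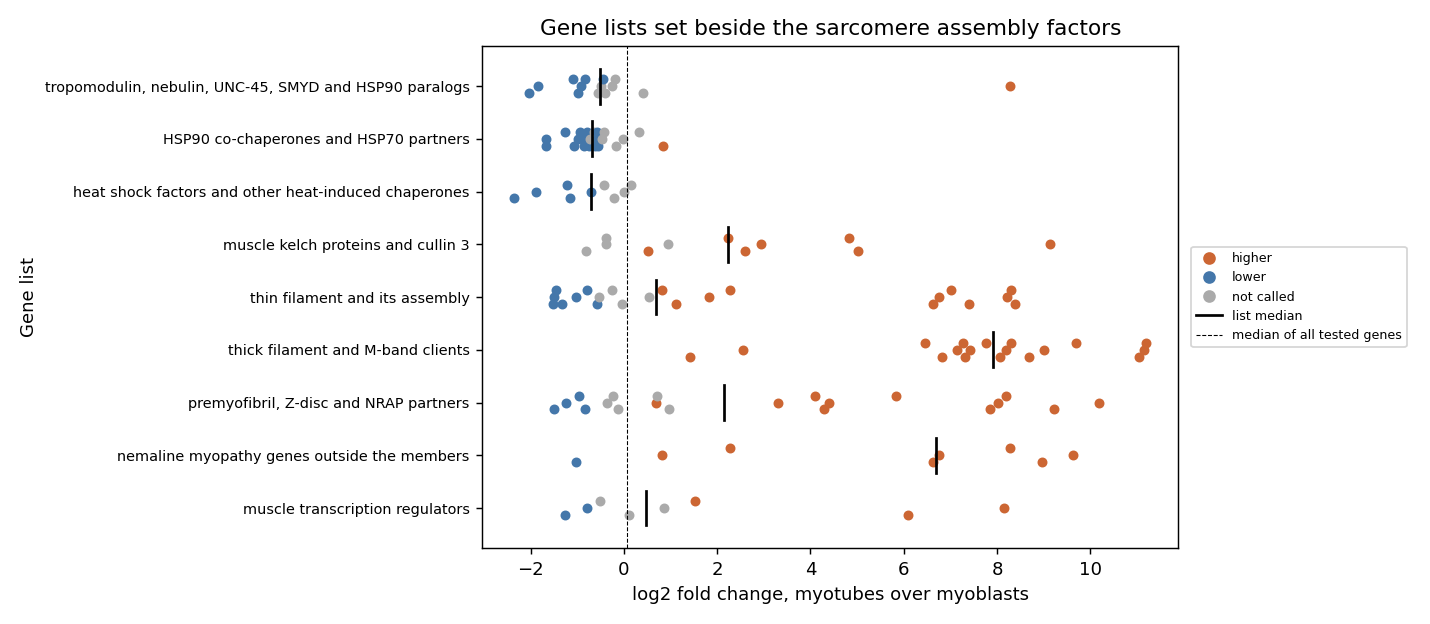
Log2 fold change, myotubes over myoblasts, of every tested gene in 9 lists set beside the 10 genes, coloured by call, with list medians as bars and the median of all tested genes dashed; vertical offsets within a row only separate points. Thick filament genes all lie to the right, chaperone lists lie mostly left of 0, and the thin filament and Z-disc lists hold genes on both sides.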

How the data were processed

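Total RNA of C2C12 samples was sequenced from TruSeq Stranded Total RNA Gold libraries, per the labels' protocols. The submitters' processing notes name STAR 2.5.1b, featureCounts 1.5.1, Salmon 0.12.0, DESeq2 1.18.1 and the build mm10, without roles. The authors' deposited table holds raw counts per gene with lengths in bases, and their normalised table (a scaled signal) is the deposited count times 1 factor per library, from 0.522 to 1.89. That table served only to check the authors' scaling. The stem cell tables were not used here. Strand settings are not given in the sources used here; in RefSeq, Lmod3, Tmod1, Tmod4, Nrap, Klhl40 and Unc45b overlap another gene, so their counts are less certain than those of the others.

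With edgeR 4.0.16 under R 4.3.3, the 6 C2C12 libraries were scaled by TMM, filtered with filterByExpr and tested by the robust quasi-likelihood F-test without covariates. Standard errors are the absolute log2 fold change over the square root of F, and intervals use the fit's degrees of freedom. Alternatives were DESeq2 1.42.0, limma-voom (limma 3.58.1), library size scaling, other filters, the replicate block and leaving out each library. Under library size scaling the median over all tested genes shifted by -0.13 (log2). Shares and pair ratios were tested by exact permutation.

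Deviations from the group mean over the tested genes correlated at r = 0.232, 0.189 and 0.170 between same-numbered samples. Differently numbered samples ran from -0.429 (myoblast 1 with myotube 2) to 0.358 (myoblast 3 with myotube 2), and a pairing was not tested. The replicate numbers come from the labels, which do not say what they mark. The reported fits and permutations are unpaired, and the fit with the replicate block is an alternative. No replicate pair agreed within sampling noise (lowest chi-square per degree of freedom 94.4). Floors and Poisson intervals cover counting error only. The 10 genes and the lists were chosen with earlier results of these data known. Named list genes are up to 3 called per direction and 2 not called with the highest mean level, every paralog, and the 2 nearest profiles per gene among genes whose mean log2 CPM was 1 or more, without genes named only as Gm or Rik models (those of Tmod1 are not reported here). Klhl34 and Kbtbd13 are named outside that rule. Reference symbols came from RefSeq and the name table, which held 55144 of the 55385 identifiers.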

Additional observations from a re-analysis of the deposited data

How the results depend on the processing

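Under 12 alternatives, or 11 for Tmod4 because the stricter filter removed it, each of the 10 genes kept its direction and its side of the threshold. With the replicate block, 8 of the 10 genes were called higher and 1 lower, as without it, and 3561 genes were called higher and 3322 lower among all genes, with Lmod2 at 8.62 and Tmod4 at 0.59 (edgeR adjusted p = 0.336). Leaving out each library in turn gave between 2430 and 3599 genes higher and between 2127 and 3517 lower. The split of calls moved to 2678 higher and 3678 lower under library size scaling, from 3264 and 3122. Under library size scaling, with the replicate block and over the leave-one-out runs, 1, 1 and 0 to 2 muscle kelch and cullin genes were called lower, the 2 without myoblast replicate 1, against 0 in edgeR as reported (0 at an unadjusted p under 0.05, 0 by DESeq2 and 0 by limma-voom). The cause was not tested. A mean count of at least 50 gave medians of 1.66 for the kelch list and 1.04 for the Z-disc list, from fewer genes tested. Leave-one-out runs gave medians from -0.91 to -0.45 for the paralog list and from 1.93 to 2.43 for the Z-disc list. Over the same runs, 8 to 16 co-chaperones, 3 to 6 heat-induced chaperones, 2 to 4 Z-disc genes and 0 to 2 transcription regulators were called lower. The change in the family share of Tmod4, -0.93 percentage points, was 0.0676 from counts without length scaling and -1.97 to 0.25 over the leave-one-out runs, with the rise without myoblast replicate 1. Without length scaling, 38 of 45 pairs of genes kept their order in myotubes. Lmod2 and Unc45b had 10 or fewer counts in every myoblast library, and Tmod4 had 10 to 54 counts in every library.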

Other observations

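Genes that cause nemaline myopathy when mutated, other than those described above, moved in the same direction as Lmod3, Klhl40 and Klhl41 with 1 exception. Of 8 tested, 7 rose and Tpm3 fell, beside 20.5% higher and 19.6% lower among all tested genes. Their median log2 fold change was 6.68, against 0.06 over all tested genes. The skeletal actin gene Acta1 rose by 6.74 ± 0.90 and Tpm2 by 2.28 ± 0.38 on the log2 scale (SE), while Tpm3, the slow tropomyosin that non-muscle cells also make, changed by -1.03 ± 0.17. Kbtbd13, a kelch gene of the same disease, had 1 count in myoblasts and 4 in myotubes and was not tested. Some of these genes are also in the thin filament list, and Neb is in the paralog list, so this is not a separate set of genes.

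Of 8 regulators of muscle transcription tested, 3 rose and 2 fell, beside 20.5% higher and 19.6% lower among all tested genes, and their median log2 fold change was 0.48. Mef2c, Myog and Mef2a rose by 8.14 ± 0.57, 6.08 ± 0.65 and 1.52 ± 0.35 on the log2 scale (SE). Srf and its coactivator Mrtfa fell, with log2 fold changes of -1.26 ± 0.32 and -0.80 ± 0.25 (edgeR, adjusted p = 0.0148 and 0.0337). The count of 2 that fell was 1 without myoblast replicate 2 or myotube replicate 2 and 0 without myoblast replicate 3. Myod1 and Mef2d were not called (-0.50 ± 0.57 and 0.85 ± 0.40). Srf was lowest in myotube replicate 1, at 17.5 CPM against 40.1 and 41.0 CPM in replicates 2 and 3.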
